A study of Mus musculus with 8 samples.

Results

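The genes described are 9 small GTPases of the Ras family, Hras, Nras, Rras, Rras2, Rap1a, Rap1b, Rala, Ralb and Rheb, taken by symbol from the 49315 Ensembl genes of each count table. RNA was sequenced from heart muscle cells of C57/Bl6 mouse embryos at embryonic day 12.5, pooled from males and females and grown in culture. The control group (Ctrl, 4 libraries) had control medium, and the other group (SMV, 4 libraries) had medium with simvastatin at 10 µM. Simvastatin is an inhibitor of HMG-CoA reductase, the enzyme that makes mevalonate, and the comparison asks how blocking that pathway changes expression in these cells. The label on RNA extraction speaks of hearts rather than cultured cells, and the sources used here do not state the time in simvastatin. The labels do not say whether replicates came from separate cultures, and the p-values then reflect the spread among these libraries alone, which may be technical.

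Ras-family proteins are switches that are on when bound to GTP and off when bound to GDP. Exchange factors turn them on, GTPase-activating proteins turn them off, and they act at membranes. The membrane anchor is a farnesyl or geranylgeranyl lipid made from mevalonate and joined to a cysteine near the end of the protein. H-Ras and N-Ras signal from growth factor receptors to the RAF, MEK and ERK kinases. R-Ras and Rap1 act in cell adhesion, the Ral proteins in vesicle delivery through the exocyst, and Rheb in growth through the kinase complex mTORC1.

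The end of each coding sequence shows the site where that lipid is joined. The last 30 coding bases of the principal GENCODE M21 transcript (GRCm38) are given 5′ to 3′ on the coding strand, with the final 4 codons, known as the CAAX box, in capitals.
Hras: ggctgcatgagctgcaaaTGTGTGCTGTCC
Nras: ggttgtatggggctgcccTGTGTGCTGATG
Rras: aaggatggaggatgtcccTGTGTCCTGCTG
Rras2: gacaagaaaggctgccatTGTGTCATTTTC
Rap1a: aagcctaaaaagaaatcaTGTTTGCTGCTC
Rap1b: gcccgcaaaaagtcatcgTGTCAGCTGCTT
Rala: aagagaatcagagaaagaTGCTGCATTTTA
Ralb: aaaagtttcaaagagcgaTGCTGCTTGCTG
Rheb: tcacaaggaaagtcttcgTGCTCGGTGATG
All 9 had a cysteine codon, TGT or TGC, as the fourth codon from the end. In Rala and Ralb the next codon was a cysteine codon as well. Ahead of the box, Hras had 2 further cysteine codons and Nras, Rras and Rras2 had 1 each. A cysteine at that place is the palmitate site of H-Ras and N-Ras. The Rap1, Ral and Rheb genes had 0 cysteine codons in that stretch. Rap1a and Rala had 4 codons for basic residues there, and Rap1b and Ralb had 3. A basic stretch of this kind helps hold such proteins at membranes. The last codon, which bears on the choice between farnesyl and geranylgeranyl, was ATG in Nras and Rheb, TCC in Hras, TTC in Rras2, CTG in Rras and Ralb, CTC in Rap1a, CTT in Rap1b and TTA in Rala. The stretches lie at chr7:141191351-141191380, chr7:114048167-114048196, chr3:105731988-105732017, chr10:117817377-117817406, chr13:17882382-17882411, chr1:119471709-119471738 and chr5:24803667-24803696 on the minus strand. Those of Nras and Rras lie at chr3:103063417-103063446 and chr7:45021332-45021361 on the plus strand.

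Libraries held 30474586 to 35215640 counts. Column names in the files assign libraries to sets: replicates 1 and 3 of each group are in set 1 and replicates 2 and 4 in set 2. The sources used here do not state what a set was. Each name also carries a number, 1 for replicates 1 and 2 of each group and 2 for replicates 3 and 4. Whether libraries with the same number share a culture is not stated. Control replicate 2 stood apart for genes of sterol synthesis, with Hmgcs1 at 1203 CPM (counts relative to library size, after scaling between libraries) against 257 to 377 in the other controls. With simvastatin Hmgcs1 stood at 1108 to 2037 CPM, so this control lay within the treated range. Its Fdft1, at 524 CPM, lay below the treated libraries, at 692 to 825, and above the other controls, at 162 to 171. Summed markers of heart muscle cells stood at 38110 to 48480 CPM in controls and 44240 to 49110 with simvastatin, with 1 of 8 rising and 0 falling. Summed smooth muscle and pericyte markers stood at 491 to 558 CPM in controls and 306 to 388 with simvastatin, and 3 of 5 tested fell. Macrophage markers stood at 63.0 to 74.1 and 45.0 to 55.6 CPM, and 3 of 5 tested fell. Fibroblast and mesenchyme markers stood at 1137 to 2523 and 1233 to 1434 CPM, with 2 of 7 falling. Of epicardial markers 3 of 6 fell (116 to 219 CPM in controls, 114 to 173 with simvastatin), and of endothelial markers 2 of 8 rose and 2 fell (220 to 305 and 226 to 283 CPM). Blood markers stood at 4.03 to 6.61 and 6.80 to 15.6 CPM and markers of neural crest and neurons at 33.1 to 50.4 and 75.1 to 94.3 CPM, with 1 of 3 tested rising in each. None of the listed markers was at 0 in all libraries. In bulk RNA, a change in the share of a cell type and a change in RNA per cell cannot be told apart, and the part of these markers in the results below was not tested.

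With simvastatin 4 of the 9 genes rose, Nras, Rras, Rap1a and Rala, and 0 fell, by an adjusted p under 0.05 over 16126 genes (Benjamini-Hochberg) in the quasi-likelihood test of edgeR. That is 44.4% of the 9, where 7.79% of all genes tested rose, 9.61% fell and 17.4% changed in either direction. The 9 genes were chosen with earlier results of these data known, so these shares are a description and not a test of the 9. At an unadjusted p under 0.05 edgeR also gave 4 rises and 0 falls. DESeq2 gave 4 rises and 0 falls, and limma-voom 3 and 0. Without control replicate 2, edgeR again gave 4 rises. Nras, Rras, Rap1a and Rala were higher in every simvastatin library than in any control, where the groups of 23.1% of all genes tested did not overlap. The mean was higher with simvastatin for 8 of the 9 genes. Log2 fold changes, called log2 changes from here on, ran from -0.067 for Rras2 to 1.02 for Rala, with a median of 0.24, against 0.01 over all genes tested. All 9 passed the filter on low counts, with 260 to 8698 counts in a library.

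**Figure D1:**
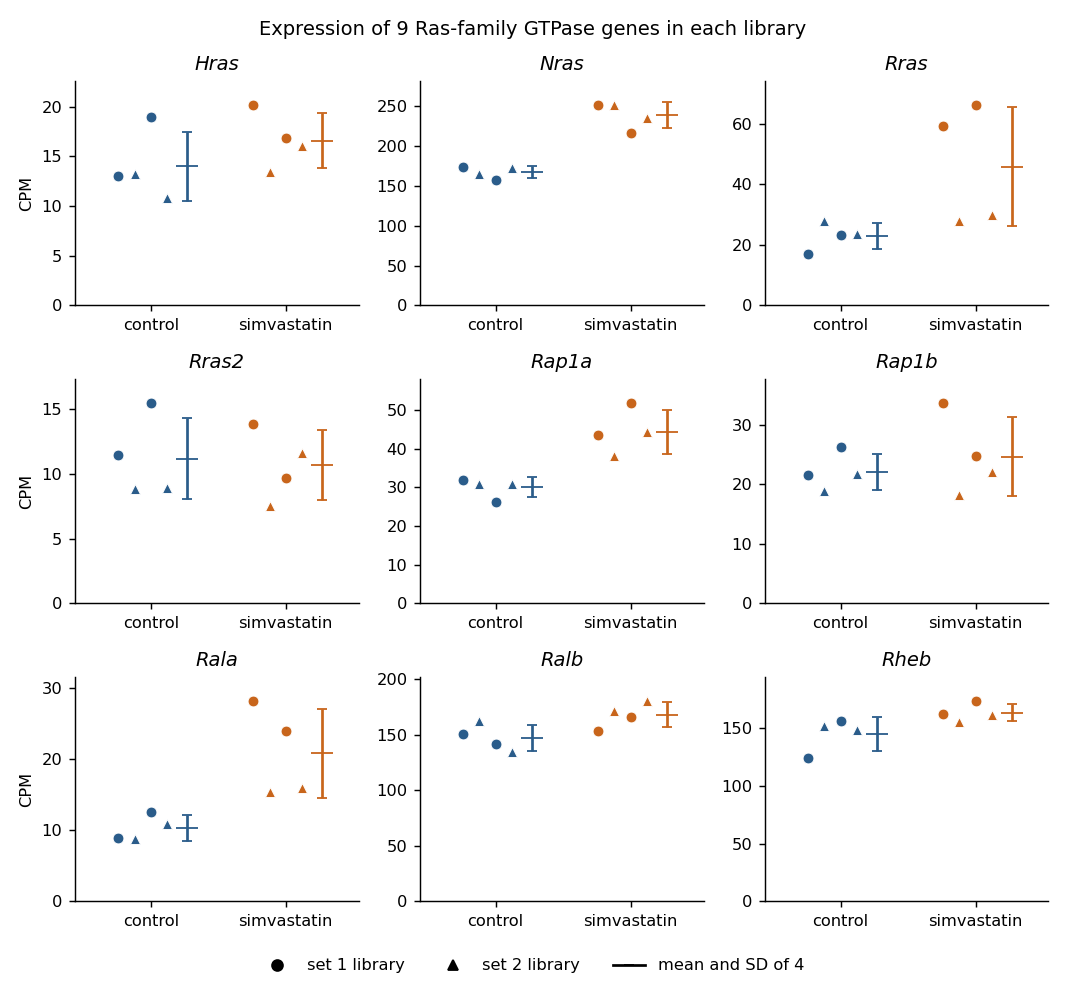
Expression of the 9 genes in each library, in CPM on linear axes from 0, for 4 control (blue) and 4 simvastatin (orange) libraries; circles are set 1, triangles set 2, and bars the mean and SD. Nras, Rras, Rap1a and Rala have no overlap between groups, and in Rras the set 1 simvastatin libraries, at 59.2 and 66.1 CPM, stand above those of set 2, at 28.0 and 29.8.

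Of the classical Ras genes, Nras rose and Hras did not pass the test. Gene positions here and below are on GRCm38, as in the files. Nras (ENSMUSG00000027852, chr3:103058285-103067914, plus strand) stood at 173, 165, 157 and 172 CPM in control replicates 1 to 4. With simvastatin it stood at 251, 251, 216 and 234 CPM, so the lowest treated library was above the highest control. Group means were 167 ± 7.41 and 238 ± 16.4 CPM (SD, n = 4 each), a log2 change of 0.51 ± 0.085 (SE; edgeR adjusted p = 0.00214). The rise was of like size in both sets, 0.48 in set 1 and 0.53 in set 2, and passed the test in each of the 8 fits without a library (adjusted p 0.00468 to 0.0111). The Nras transcript shares 3.8% of its length, at 95% identity or more, with transcripts of 6 other genes.

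Hras (ENSMUSG00000025499, chr7:141189105-141194005, minus strand) was far lower. It stood at 13.1, 13.2, 18.9 and 10.8 CPM in controls and at 20.2, 13.4, 16.8 and 16.0 CPM with simvastatin, with overlapping groups. Its log2 change was 0.24 ± 0.19 (SE; edgeR adjusted p = 0.453). Per kilobase of counted length, the ratio of Hras to Nras was 0.0898 to 0.172 in the control libraries.

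Of the R-Ras genes, Rras rose in the pooled comparison, with treated libraries that lay far apart by set; the test of a difference between sets did not pass after adjustment. Rras (ENSMUSG00000038387, chr7:45017961-45021647, plus strand), which supports integrin adhesion, stood at 17.1, 27.8, 23.4 and 23.5 CPM in controls. With simvastatin it stood at 59.2 and 66.1 CPM in the set 1 replicates 1 and 3, and at 28.0 and 29.8 CPM in the set 2 replicates 2 and 4. The set 2 libraries were thus only just above the highest control, while those of set 1 were far above. Means were 22.9 ± 4.43 and 45.8 ± 19.7 CPM (SD, n = 4 each), a log2 change of 0.997 ± 0.28 (SE; edgeR adjusted p = 0.0344). In set 1 the log2 change was 1.61 (edgeR adjusted p = 0.0081) and in set 2 it was 0.17 (edgeR adjusted p = 0.414). The test of that difference, an interaction of treatment with set in edgeR, gave a log2 difference of -1.46 for set 2 minus set 1, with an edgeR adjusted p of 0.0657. That test passed for 0.0558% of all genes tested, and for 0 of these 9. Rras alone had an unadjusted interaction p under 0.05 among them. The pooled call ended in limma-voom (adjusted p = 0.0617) and in fits without replicate 1, 3 or 4 of the controls, or 1 or 3 of the treated libraries (adjusted p 0.0682 to 0.108). Markers of fibroblasts and epicardium also moved differently by set. The summed fibroblast and mesenchyme markers stood at 2295 and 2523 CPM in the set 1 controls and at 1258 and 1233 in the treated libraries of that set, against 1147 and 1137, then 1434 and 1341, in set 2. The fibroblast genes Col3a1 and Col1a2 and the epicardial gene Tcf21 passed the interaction test (edgeR adjusted p = 0.0277, 0.0351 and 0.0351). Summed blood markers stood at 15.6 and 13.6 CPM in the treated libraries of set 1 and 6.80 and 8.89 in those of set 2, but their 3 tested genes did not pass (edgeR adjusted p 0.594 to 0.988). The part of these markers in the Rras result was not tested.

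Rras2 (ENSMUSG00000055723, chr7:114046782-114117781, minus strand), which encodes the R-Ras relative TC21, stood at 11.5, 8.82, 15.5 and 8.93 CPM in controls. With simvastatin it stood at 13.9, 7.49, 9.71 and 11.6 CPM. The groups overlapped throughout, with a log2 change of -0.067 ± 0.23 (SE; edgeR adjusted p = 0.891).

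Rap1a rose while the groups of Rap1b overlapped. Rap1a (ENSMUSG00000068798, chr3:105727267-105801336, minus strand) stood at 31.98, 30.9, 26.2 and 30.9 CPM in controls and at 43.4, 38.0, 51.7 and 44.2 CPM with simvastatin. Each treated library was above each control. Means were 29.98 ± 2.60 and 44.3 ± 5.66 CPM (SD, n = 4 each), a log2 change of 0.56 ± 0.12 (SE; edgeR adjusted p = 0.00895). It was 0.69 in set 1 and 0.41 in set 2, and passed the test in each of the 8 fits without a library (adjusted p 0.00726 to 0.034). A processed pseudogene, Gm9392, matches 23.0% of the Rap1a transcript at up to 98.6% identity and held 2 to 11 counts per library, so some reads of Rap1a could have been divided or dropped.

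Rap1b (ENSMUSG00000052681, chr10:117814471-117845935, minus strand), which encodes a close relative of Rap1A, stood at 21.6, 18.9, 26.2 and 21.7 CPM in controls. With simvastatin it stood at 33.6, 18.2, 24.7 and 22.1 CPM, so replicate 1 alone was above the controls. The log2 change was 0.16 ± 0.19 (SE; edgeR adjusted p = 0.643).

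Of the Ral genes, Rala rose and Ralb did not pass the test. Rala (ENSMUSG00000008859, chr13:17880575-17944239, minus strand) stood at 8.89, 8.73, 12.6 and 10.8 CPM in controls and at 28.1, 15.3, 23.9 and 15.9 CPM with simvastatin. All treated libraries were above all controls, and the set 1 replicates 1 and 3 were the highest. Means were 10.3 ± 1.81 and 20.8 ± 6.27 CPM (SD, n = 4 each), a log2 change of 1.02 ± 0.22 (SE; edgeR adjusted p = 0.00929). It was 1.26 in set 1 and 0.67 in set 2 (edgeR adjusted p of the difference 0.499). Without any 1 library it still passed (adjusted p 0.00745 to 0.0337).

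Ralb (ENSMUSG00000004451, chr1:119470305-119504794, minus strand) was the more abundant of the pair. It stood at 150, 162, 142 and 134 CPM in controls and at 153, 171, 166 and 180 CPM with simvastatin. The groups overlapped, with a log2 change of 0.19 ± 0.093 (SE; edgeR adjusted p = 0.204).

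Rheb (ENSMUSG00000028945, chr5:24802823-24842624, minus strand) stood at 124, 152, 156 and 148 CPM in controls. With simvastatin it stood at 162, 155, 173 and 162 CPM, overlapping the controls. Its log2 change was 0.17 ± 0.095 (SE; edgeR adjusted p = 0.274).

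**Figure D2:**
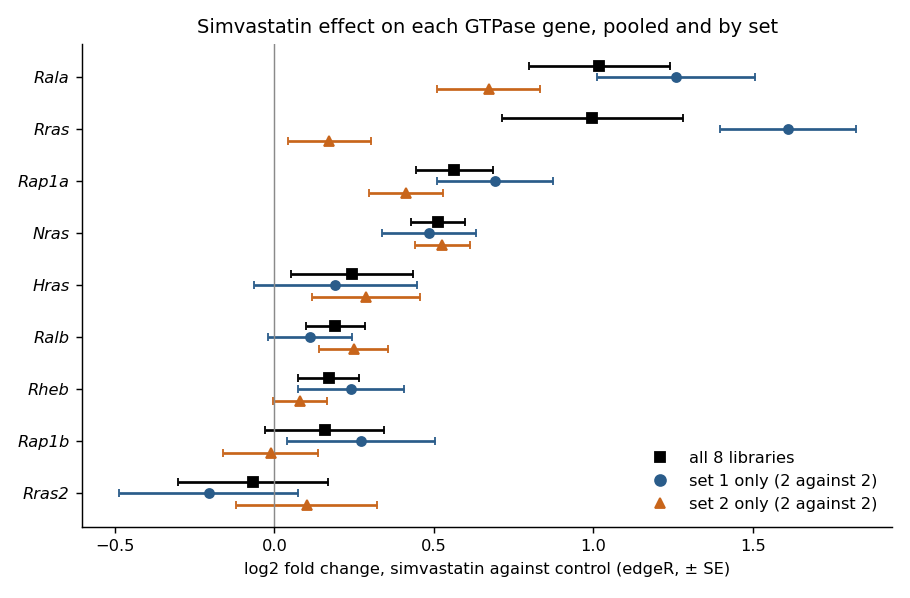
Log2 fold change of simvastatin against control for each gene, on the x axis, with its SE, over all 8 libraries (squares), set 1 only (circles) and set 2 only (triangles). The estimates of Nras lie together (0.51, 0.48 and 0.53), while those of Rras lie at 0.997, 1.61 and 0.17.

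Within set 1 alone, 2 of the 9 genes passed the test, Rras and Rala, where 9.82% of all genes did. Within set 2 alone 3 passed, Nras, Rap1a and Rala, where 18.3% of all genes did. Each of these fits had 2 libraries against 2.

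The summed level of the 9 genes was 569 ± 16.1 CPM in controls and 732 ± 30.4 CPM with simvastatin (SD, n = 4 each), from 551 to 587 and from 698 to 764 CPM. Most of that sum came from 3 genes. Nras held 29.3% of it in controls, Ralb 25.8% and Rheb 25.4%. With simvastatin these shares were 32.6%, 23.0% and 22.3%. These are shares of counts not divided by gene length. The same 3 genes have the longest counted lengths of the 9, 7721 bases for Rheb, 5331 for Nras and 4930 for Ralb.

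Levels were set in order per kilobase of the length over which the files count each gene. In controls Nras (31.3 ± 1.39 CPM per kilobase) and Ralb (29.8 ± 2.45) came first and overlapped. Rras (20.5 ± 3.95) and Rheb (18.8 ± 1.89) followed and overlapped with each other. Rap1a (11.5 ± 0.997) and Rap1b (10.92 ± 1.503) formed an overlapping pair below them. Rala (3.82 ± 0.68), Hras (3.75 ± 0.93) and Rras2 (3.14 ± 0.87) were lowest and overlapped. With simvastatin Rras, at 40.8 ± 17.6 CPM per kilobase, stood between Nras (44.6 ± 3.07) and Ralb (34.0 ± 2.28) and overlapped with both. Rala, at 7.75 ± 2.34, did not overlap with Hras at 4.44 ± 0.75. All these values are means with SD over 4 libraries.

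The order depends on the length used. The counted length of Rheb is 7721 bases and its principal transcript 1784 bases, so per kilobase of transcript Rheb came first in controls, at 81.2 ± 8.18 CPM (SD, n = 4), and overlapped with Ralb at 64.3 ± 5.27. Nras followed at 37.3 ± 1.66 CPM per kilobase, and Rala, at 3.82 ± 0.67, was last. With simvastatin on this scale, Rras (45.99 ± 19.8) came after Rheb, Ralb and Nras (53.2 ± 3.67), and Rala (7.73 ± 2.33) overlapped with Hras (5.87 ± 0.99).

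**Figure D3:**
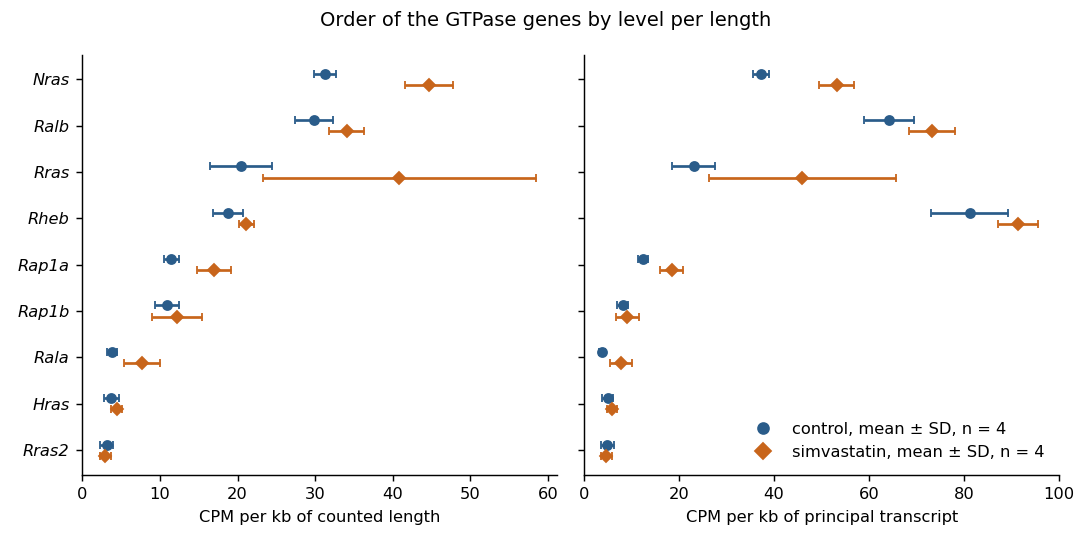
Mean level per kilobase with SD over 4 libraries, in controls (blue circles) and with simvastatin (orange diamonds), per counted length on the left and per principal transcript length on the right. Nras and Ralb lead on the left at 31.3 and 29.8 CPM per kilobase in controls, and Rheb and Ralb on the right at 81.2 and 64.3.

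The balance within each pair of relatives was compared as the log2 ratio of counts per kilobase within a library, which does not depend on scaling between libraries. The ratio of Rala to Ralb was -2.98 ± 0.35 in controls and -2.18 ± 0.52 with simvastatin (SD, n = 4 each), a difference of 0.80 (two-sided exact permutation test, p = 0.0571, adjusted p = 0.152 over 4 pairs). As plain ratios the controls ran from 0.0989 to 0.163 and the treated libraries from 0.162 to 0.337. The ratio of Rras to Rras2 differed by 0.98 (exact permutation p = 0.0857, adjusted p = 0.152). That of Rap1a to Rap1b differed by 0.43 (exact permutation p = 0.114, adjusted p = 0.152), and that of Hras to Nras by -0.25 (exact permutation p = 0.429, adjusted p = 0.429). None of the 4 passed. The smallest p that 4 against 4 allows is 0.0286, and 1 pair alone at that value would have an adjusted p of 0.114, so a single pair could not have passed. These permutations do not use the sets. Within set 1 the ratio of Rala to Ralb was -3.20 and -2.62 in controls and -1.57 and -1.92 with simvastatin, and within set 2 it was -3.34 and -2.75, then -2.61 and -2.63, with no overlap in either set. The ratio of Rras to Rras2 did not overlap in set 1 and overlapped in set 2. That of Rap1a to Rap1b overlapped in set 1 and did not in set 2, and that of Hras to Nras overlapped in both. With 2 libraries against 2, groups often do not overlap by their ordering alone, and these splits were not tested.

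**Figure D4:**
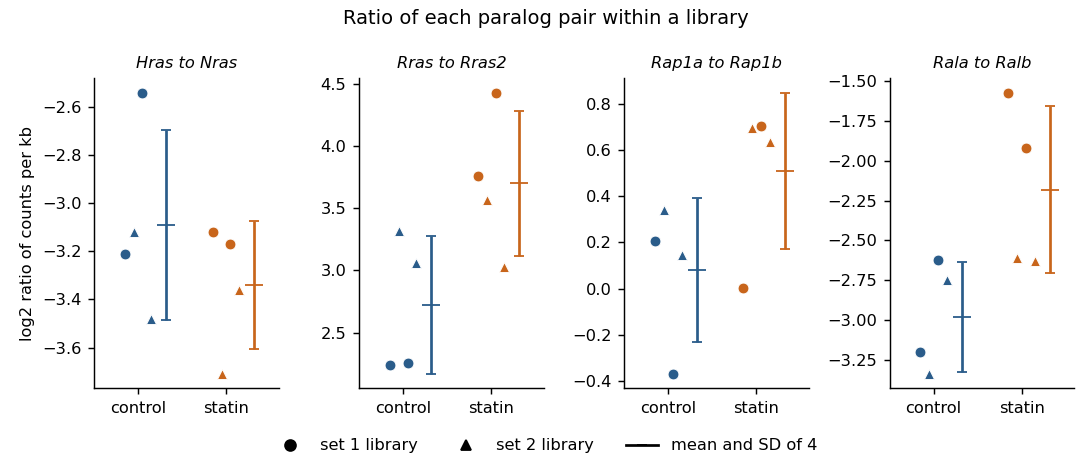
Log2 ratio of counts per kilobase of each pair of relatives in 4 control (blue) and 4 simvastatin (orange) libraries, with the mean and SD; circles are set 1 and triangles set 2, and each panel has its own y axis. The groups overlap in every panel, in that of Rala to Ralb only where a set 1 control, at 0.163 as a plain ratio, meets a set 2 treated library at 0.162.

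Some of the 9 genes varied together among libraries of the same group. Over the 8 libraries, deviations of log2 CPM from the group mean had a Pearson r of 0.91 for Rala with Rap1b, 0.89 for Hras with Rras2 and 0.84 for Rras2 with Rap1b. Rala with Ralb had -0.78, and Nras with Rheb -0.66. These values describe libraries that share depth, set and scaling, and no test was made. The genes whose log2 CPM over the 8 libraries was most like that of Nras, among 10018 protein-coding genes of at least 5 CPM, were Map1b (r = 0.975), Calhm5 (0.975) and Kif3a (0.972). These r values span both groups and so include the difference between them. Nras had both the smallest p and the highest level per kilobase of counted length of the 9.

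Because 3 of the genes that rose have a promoter in the RefSeq table (GRCm38.p6), their 250 bases ahead of the transcript start are shown 5′ to 3′ on the coding strand, at chr3:103058035-103058284 (plus), chr7:45017692-45017941 (plus) and chr13:17944218-17944467 (minus). Capitals mark the GC box GGGCGG on either strand.
Nras: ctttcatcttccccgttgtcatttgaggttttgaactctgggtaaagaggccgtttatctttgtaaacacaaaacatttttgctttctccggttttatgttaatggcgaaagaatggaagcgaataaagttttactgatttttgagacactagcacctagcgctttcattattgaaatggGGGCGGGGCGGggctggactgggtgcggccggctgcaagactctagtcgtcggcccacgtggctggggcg
Rras: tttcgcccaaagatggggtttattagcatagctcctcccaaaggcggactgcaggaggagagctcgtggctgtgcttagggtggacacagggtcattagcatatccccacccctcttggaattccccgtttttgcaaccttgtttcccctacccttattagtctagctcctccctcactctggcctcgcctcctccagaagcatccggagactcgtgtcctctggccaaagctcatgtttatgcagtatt
Rala: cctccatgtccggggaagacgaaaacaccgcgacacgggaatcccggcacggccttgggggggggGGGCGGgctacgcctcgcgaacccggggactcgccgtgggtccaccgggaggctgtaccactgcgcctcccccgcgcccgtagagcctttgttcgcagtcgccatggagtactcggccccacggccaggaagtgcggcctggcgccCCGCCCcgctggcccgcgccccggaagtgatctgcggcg
Of the 9 genes 8 had a promoter in the table, and Rap1a had no entry. Rras has 3 entries, and the one at the start of its principal transcript is shown. The upstream stretch of Nras held 2 GC boxes, which overlap, that of Rala held 2 and that of Rras 0. The genes that did not pass the test held GC boxes as well: Rap1b 4, Hras 3, Rras2 2, Ralb 1 and Rheb 1. The Hras entry does not match the start of its principal transcript. A GC box stands in 32.7% of 32851 such stretches. The CCAAT box was searched as CCAAT and stands in 33.9% of them. The sterol regulatory element was searched as TCACNCCAC and stands in 1.05%. Both were searched on either strand, and these letters were not in the stretches of Nras, Rras or Rala. Among the genes that did not pass the test, Ralb had 2 CCAAT boxes, Hras 1, and Rheb, Rras2 and Rap1b 0. GC content was 48.4% for Nras, 53.2% for Rras and 73.6% for Rala, against a median of 52.4%.

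Among 140 other genes of these pathways, 134 were tested, of which 9 rose and 13 fell. That is 16.4%, near the 17.4% of all genes tested, but the share differed by list, from 0% to 55%. The lists were the relatives of the 9 genes, their regulators, their effectors and the enzymes that attach and handle their lipids. They were written with earlier results of these data known, so the shares below are description and not tests of the lists.

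The other Ras-family GTPases moved in both directions: of 20 tested, 5 rose and 6 fell. This share of 55% compares with 17.4% of all genes tested. Their median was 0.066 on the log2 scale. Nkiras2, which encodes an inhibitor of NF-κB signalling, rose from 127 ± 9.44 to 216 ± 11.6 CPM (log2 change 0.77, edgeR adjusted p = 0.00024). Rem1, of a group of GTPases that restrain calcium channels, fell from 5.99 ± 2.80 to 1.79 ± 0.36 CPM (log2 change -1.74). Rasl11a fell from 7.41 ± 3.38 to 1.99 ± 0.25 CPM (log2 change -1.90). These are means with SD over 4 libraries per group.

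In the 4 lists of regulators, 18.2% of the genes of Ras exchange factors and adaptors changed, 11.1% of Ras GTPase-activating proteins, 7.14% of Rap regulators and 22.2% of Ral regulators, against 17.4% of all genes. Of 11 exchange factors and adaptors of Ras, Grb2 rose and Rasgrp3 fell. Grb2, the adaptor that brings the exchange factor SOS to receptors, stood at 39.8, 50.2, 43.3 and 48.2 CPM in controls and at 83.4, 89.6, 85.4 and 78.6 CPM with simvastatin. Every treated library was well above every control (log2 change 0.89 ± 0.10 SE, edgeR adjusted p = 0.00024). Rasgrp3, a diacylglycerol-responsive exchange factor, had a log2 change of -0.70 (edgeR adjusted p = 0.0244), a call lost in the fits without replicate 1 or 2 of the controls, or 1 or 3 of the treated libraries (adjusted p 0.0578 to 0.07). Of 9 GTPase-activating proteins of Ras, 0 rose in edgeR, DESeq2 or limma-voom or at an unadjusted p under 0.05, and Rasal3 fell from a low level, 0.548 ± 0.20 to 0.111 ± 0.063 CPM (SD, n = 4 each). Of 14 regulators of Rap, Rapgef3 rose and 0 fell in edgeR (2 fell at an unadjusted p under 0.05, 2 in DESeq2 and 1 in limma-voom). Rapgef3, the cyclic AMP sensor EPAC1, which activates Rap, went from 28.2 ± 2.45 to 40.9 ± 2.47 CPM (log2 change 0.54, edgeR adjusted p = 0.00537). Of 9 regulators of Ral, Rgl1 rose (log2 change 0.55, edgeR adjusted p = 0.013) and Rgl3 fell (-0.86, edgeR adjusted p = 0.00819). Both belong to a family of Ral exchange factors. For the regulators of Ral, DESeq2 gave 3 rises and 1 fall and limma-voom 1 and 1. At an unadjusted p under 0.05 in edgeR 4 rose and 1 fell.

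Among effectors, kinases and lipid enzymes few or none passed. In edgeR 6.67% of the genes of lipid attachment and trafficking changed and 0% of each other list here, against 17.4% of all genes tested. With lists of 8 to 15 genes these shares are coarse. Of 12 genes of Rheb control and mTORC1, 0 passed in edgeR, 0 in DESeq2, 0 in limma-voom and 0 at an unadjusted p under 0.05. The smallest p was that of Mlst8, an mTOR partner (log2 change 0.19, edgeR adjusted p = 0.226). Of 8 RAF, MEK and ERK kinase genes 0 passed in any of these tools, and 1, the ERK gene Mapk3, had an unadjusted p under 0.05 in edgeR (log2 change 0.35, edgeR adjusted p = 0.156). Of 9 Rap effectors 0 passed in any of them, and 1, Rassf5, had an unadjusted p under 0.05 (log2 change 0.49, edgeR adjusted p = 0.103). Of 10 Ral effectors and exocyst subunits 0 passed in edgeR, while DESeq2 and limma-voom each called 1 rise and 1 had an unadjusted p under 0.05. That gene was Exoc8 (log2 change 0.54, edgeR adjusted p = 0.0532). Of 15 genes of lipid attachment and trafficking, 0 rose in edgeR (2 at an unadjusted p under 0.05, 1 in DESeq2, 0 in limma-voom). Abhd17c, of a family that removes palmitate from N-Ras, fell from 13.4 ± 1.90 to 8.03 ± 1.32 CPM (SD, n = 4 each; log2 change -0.73, edgeR adjusted p = 0.0119).

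Of 17 tested genes that ERK signalling is known to induce, 1 rose and 3 fell in edgeR. That is 23.5%, against 17.4% of all genes. The count of falls depended on the tool. DESeq2 gave 1 rise and 4 falls, limma-voom 1 and 2, and an unadjusted p under 0.05 in edgeR 1 and 5. The median of the 17 was -0.31 on the log2 scale over all libraries, -0.30 in set 1 alone and -0.26 in set 2 alone. Spry1, which encodes a feedback inhibitor of Ras and ERK signalling, stood at 11.5, 8.17, 14.4 and 8.35 CPM in controls and at 1.39, 1.84, 2.29 and 2.14 CPM with simvastatin. All treated libraries were far below all controls (log2 change -2.47 ± 0.25 SE, edgeR adjusted p = 9.85e-05). Its relative Spry4 rose from 37.1 ± 5.53 to 58.87 ± 2.998 CPM (SD, n = 4 each; log2 change 0.67, edgeR adjusted p = 0.00344). Dusp6, an ERK phosphatase, fell from 87.7 ± 14.9 to 56.9 ± 6.38 CPM (log2 change -0.62, edgeR adjusted p = 0.00931). The ETS factor gene Etv4, named after its value was seen because it completes the count, had a log2 change of -1.39 (edgeR adjusted p = 0.0309). Its call held in 2 of 8 fits without a library and was lost without replicate 1 or 3 of the controls or any 1 treated library (adjusted p up to 0.0867), and in set 2 alone the log2 change was -0.58 (edgeR adjusted p = 0.299).

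**Figure D5:**
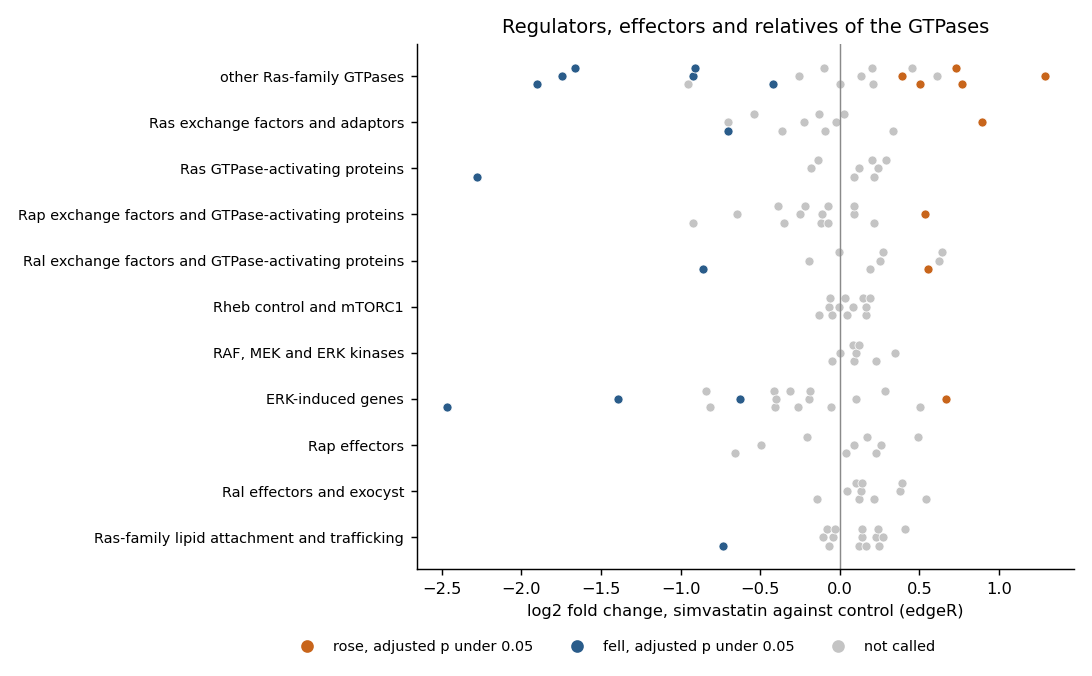
Log2 fold change (x axis) of each tested gene of the 11 pathway lists (rows), coloured by the edgeR call at an adjusted p under 0.05; vertical scatter within a row has no meaning. The other Ras-family GTPases hold 5 of the 9 rises and 6 of the 13 falls, and the 12 genes of Rheb control and mTORC1 lie near 0 with no call.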

How the data were processed

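RNA was measured in 8 libraries, grouped by their titles. The authors deposited 1 table of raw gene counts per library, in featureCounts layout per the file headers. The submitters' processing notes name Trimmomatic 0.36, STAR 2.5.2b, featureCounts and Subread 1.5.2 with builds GRCm38 and mm10. The sources used here do not state the annotation release, the strand setting or how multiply mapped reads were handled. Symbols came from GENCODE M21, which matched 99.5% of identifiers; gene positions are those of the files. No exon of the 9 genes overlapped an exon of another gene in the files.

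Genes were kept by filterByExpr. Groups were compared in edgeR 4.0.16 under R 4.3.3 by its two-sided quasi-likelihood test, after TMM scaling, in a model holding treatment alone, with p adjusted over 16126 genes at 0.05. The SE is the one implied by the F value. The quasi-likelihood test, not the SE, was tried on simulated counts with known changes and no sets. CPM used the same scaling. Alternatives were DESeq2 1.42.0, limma-voom (limma 3.58.1), other scaling, filters and terms, each library left out, and each set alone. Permutation tests ran in Python 3.11.15. Shared transcript stretches were BLAST matches of at least 95% identity over at least 100 bases. Libraries of 1 group differed from each other by more than sampling noise.

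The 9 genes were chosen and the gene lists written with earlier results of these data known. The rule named all 9, and from each list up to 3 genes past the threshold, smallest p first, or the 1 with the smallest p. It also named the 3 genes most like the gene of smallest p and the 3 most like that of the highest level per kilobase, both times Nras.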

Additional observations from a re-analysis of the deposited data

Results flagged for a closer look

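In 52 groups of 4 libraries (26 named genes in controls and with simvastatin), 0 had a library that stood apart by Dixon's criterion in CPM. None of the 26 genes had an adjusted p under 0.05 for a difference in treatment effect between sets.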

How the results depend on the processing

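Of 72 refits of the 4 genes that rose, 62 kept the call, 10 lost it and 0 changed direction; 8 of the lost calls were those of Rras, and the others were Nras and Rap1a in set 1 alone. The number of rises among the 9 genes was 2 in set 1 alone, against 4, and 3 to 4 with each library left out in turn; 0 fell in any of these. With the replicate number as a block, 3 rose, Rras having an adjusted p of 0.0994; the numbers share no stated source, and same-numbered libraries deviated from their group means with correlations of -0.143, 0.0452, 0.133 and -0.162. Among other pathway genes, rises were 2 in set 1 alone, against 9, and falls 20 in set 2 alone, against 13; the cause was not tested, and each set has 2 libraries a group. Left-out libraries gave 6 to 9 rises and 10 to 13 falls. The log2 change of Rras2 turned to 0.10 in set 2 alone, 0.14 without control replicate 3 and 0.065 without simvastatin replicate 2 (-0.22 to 0.14 over left-out libraries), and that of Rap1b to -0.011 in set 2 alone and -0.028 without simvastatin replicate 1 (-0.028 to 0.27), none of them past the threshold. The level per kilobase by principal transcript was an alternative chosen after seeing the data.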

Other observations

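Fnta, which encodes the alpha subunit shared by the enzymes that attach farnesyl and geranylgeranyl, varied widely and was singled out after its values were seen. It stood at 13.8, 73.6, 57.2 and 83.3 CPM in control replicates 1 to 4. With simvastatin it stood at 87.3 and 119.8 CPM in the set 1 replicates 1 and 3, and at 34.4 and 28.0 CPM in the set 2 replicates 2 and 4. Its partner subunits Fntb and Pggt1b stood at 13.9 to 18.2 and 13.2 to 25.8 CPM over all 8 libraries. The difference in the treatment effect on Fnta between sets was -2.88 on the log2 scale for set 2 minus set 1 (edgeR adjusted p = 0.121).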
